A study of Mus musculus with 6 samples.

Results

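The EGR, NR4A and other immediate early genes examined here were Egr1, Egr2, Egr3, Nr4a1, Nr4a2, Nr4a3, Ier2, Ier3, Dusp1 and Zfp36. They were chosen by symbol, and all 10 symbols matched a protein-coding gene, of 21887 in the RefSeq table of GRCm38.p6. Chromatin was measured by CUT&Tag in B16 cells, a mouse melanoma line. In this assay an antibody brings a transposase to its target, and the transposase tags the DNA around it. Wild-type cells kept in medium with fetal bovine serum gave 1 library for H3K4me3 and 1 for p300. H3K4me3 is histone H3 with 3 methyl groups on lysine 4, which marks active promoters. The product of Ep300, p300, acetylates histones at enhancers and promoters. The labels name no stimulus. A further 4 libraries, for H3K9me3, came from cells titled as wild type or as knockouts of Tdg, Trp53 or both, and were not analysed here. With 1 library per antibody there was no replicate check and no test, and every value below describes these 2 libraries.

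Immediate early genes are transcribed soon after a cell receives a growth factor or stress signal, before any new protein has to be made. ERK and related kinases reach them through serum response factor with its ELK partners, and through CREB, and these factors can recruit p300 or its relative CBP. The EGR proteins are zinc finger transcription factors, and the NR4A proteins are orphan nuclear receptors that act without a classical ligand. DUSP1 dephosphorylates MAP kinases, and ZFP36 binds AU-rich messenger RNAs and speeds their decay, so both limit the response.

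H3K4me3 was found at most of these genes and p300 at fewer. An H3K4me3 peak came within 1 kb of an annotated end of 8 of the 10 genes (80%, exact 95% interval 44.4 to 97.5%), and 50.5% of all protein-coding genes had one. Egr2 and Egr3 were the exceptions. With peaks inside the gene counted too, Egr3 was left as the exception, with 9 of 10 against 58.9%. A p300 peak came within 1 kb of an end of 3 genes, Egr1, Nr4a3 and Dusp1 (30%, 6.67 to 65.2%), against 13.5% of all protein-coding genes. Within 50 kb, 7 genes had p300 (70%, 34.8 to 93.3%), against 44.2%, and Egr2, Egr3 and Nr4a2 had none. Each of the p300 intervals includes the share over all genes, and so does that for H3K4me3. The ends are the lower and upper limits of a gene in the annotation, so these counts take in promoters and 3′ ends alike.

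**Figure D1:**
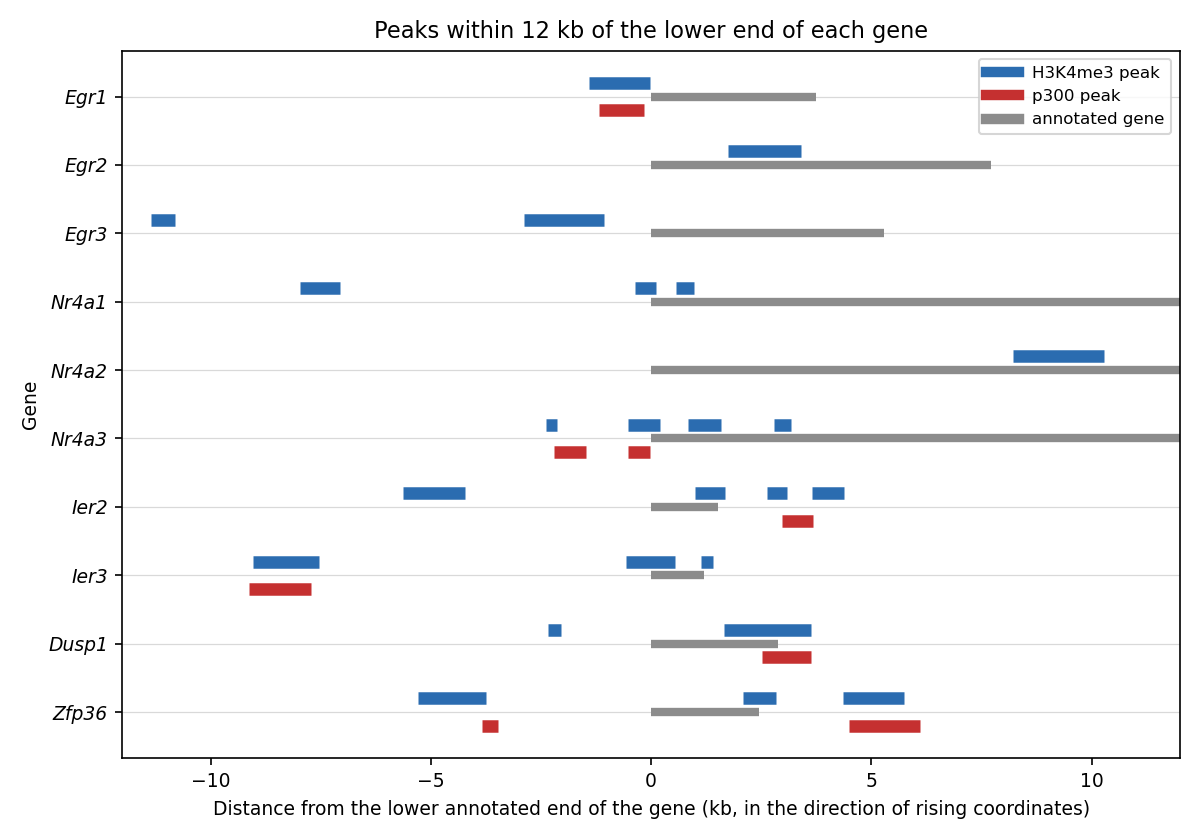
Peaks near the 10 genes, with distance in kb from the lower annotated end on the x axis and 1 row per gene. Blue bars are H3K4me3 peaks, red bars p300 peaks and grey bars the annotated genes. Egr1, Nr4a3 and Dusp1 each have a p300 bar at a gene end under an H3K4me3 bar. A further p300 bar of Nr4a3 lies below the gene, mostly outside H3K4me3. Those of Ier2, Ier3 and Zfp36 lie beside the gene. The view stops short of the deepest Nr4a1 peak and of the Nr4a2 peak by its start site.

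The 3 EGR genes differed from each other. Egr1 (chromosome 18, 34861207 to 34864956) had a single H3K4me3 peak of 1369 bp that ended 32 bp below the gene. Its fold enrichment over background was 8.81, the highest among the 10 genes, and its summit held 198 reads. A p300 peak of 1024 bp and fold 6.55 lay within that H3K4me3 peak and ended 166 bp below the gene, with 46 reads at its summit. No other p300 peak was found within 50 kb of Egr1. Both peaks therefore lay just outside the annotated gene, on the side of its lower end.

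Egr2 (chromosome 10, 67534469 to 67542188) had 1 H3K4me3 peak, inside the gene, from 67536225 to 67537879. It was 1655 bp wide, with a fold of 5.62 and 99 reads, the fewest among the deepest peaks of these genes. RefSeq gives Egr2 5 start sites, and the peak contained 3 of them. The closest p300 peak lay 308062 bp from an end.

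No H3K4me3 peak reached Egr3 (chromosome 14, 70077317 to 70082613) or came within 1 kb of it. Its closest H3K4me3 peak, from 70074425 to 70076242, was 1818 bp wide with a fold of 7.63 and 128 reads, and ended 1075 bp below the gene. Egr3 was therefore just outside the distance that counted, whereas the peak inside Egr2 lay 1756 bp from the nearer end. With a distance of 2 kb, all 10 genes had H3K4me3 at an end, against 53.5% of all protein-coding genes. The closest p300 peak to Egr3 lay 76810 bp away.

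Among the NR4A genes, p300 was found beside Nr4a3 and not beside Nr4a2. Nr4a1 (chromosome 15, 101253902 to 101274795) had 4 H3K4me3 peaks in or at an end of the gene. The deepest, from 101266823 to 101268609, held 238 reads, the most among the 10 genes, and covered the RefSeq start site at 101266846. It was 1787 bp wide and had a fold of 3.96. A pair of smaller peaks lay at the lower annotated end, with folds of 4.38 and 4.71 and 69 and 75 reads. The single p300 peak within 50 kb, of fold 4.40, lay 8959 bp above the gene and 41 bp from an end of Atg101, an autophagy gene, and so was nearer to that gene.

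Nr4a2 (chromosome 2, 57106830 to 57124003, minus strand) had 2 H3K4me3 peaks and no p300 within 50 kb. The closest p300 peak was 697270 bp from an end. Its deeper H3K4me3 peak was inside the gene, from 57115035 to 57117113, at 6890 bp from the start site, with 172 reads and a fold of 5.47. At 2079 bp it was the widest H3K4me3 peak in or at an end of these genes. The peak by the start site held fewer reads, 54, with a fold of 5.79, and lay 222 bp from the start, inside the gene. It also lay across an end of LOC105244150, a predicted gene that overlaps Nr4a2, so it cannot be credited to Nr4a2 alone.

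Nr4a3 (chromosome 4, 48045078 to 48086447) had 3 H3K4me3 peaks in or at an end of the gene and 3 p300 peaks within 50 kb. The H3K4me3 peak across its lower end was 732 bp wide, with 188 reads and a fold of 3.87. Those inside the gene had folds of 2.67 and 2.63, with 130 and 114 reads. A p300 peak from 48044554 to 48045059 lay inside the first of these H3K4me3 peaks, with a fold of 4.49 and 79 reads. A second p300 peak, from 48042863 to 48043611, was deeper, with 94 reads and a fold of 5.46, and ended 1467 bp below the gene. Its summit was outside H3K4me3, the exception among the 10 p300 peaks of these genes. The third, of fold 6.34 and 17 reads, lay across an end of Stx17, a syntaxin gene, 38131 bp above Nr4a3.

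The promoters of the 3 NR4A genes are shown side by side because the genes shared H3K4me3 but differed in p300. Each line gives the 250 bases before a RefSeq start site in GRCm38.p6, read in the direction of the gene. Capitals mark TGACG on either strand (CGTCA where it lies on the other strand) and the EGR motif GCGNGGGCG on either strand. The windows are chr15:101266596-101266845 on the plus strand, chr2:57124004-57124253 on the minus strand and chr4:48045055-48045304 on the plus strand.
Nr4a1 promoter: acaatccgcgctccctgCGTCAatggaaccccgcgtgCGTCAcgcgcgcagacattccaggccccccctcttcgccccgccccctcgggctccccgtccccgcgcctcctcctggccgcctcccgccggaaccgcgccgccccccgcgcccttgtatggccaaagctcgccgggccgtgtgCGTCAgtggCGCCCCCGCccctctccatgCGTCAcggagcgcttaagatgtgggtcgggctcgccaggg
Nr4a2 promoter: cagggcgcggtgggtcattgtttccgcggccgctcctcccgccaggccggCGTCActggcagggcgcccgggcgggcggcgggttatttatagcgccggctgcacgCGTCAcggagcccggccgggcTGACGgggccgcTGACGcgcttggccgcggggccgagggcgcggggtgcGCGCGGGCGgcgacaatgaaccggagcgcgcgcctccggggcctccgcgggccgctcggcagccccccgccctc
Nr4a3 promoter: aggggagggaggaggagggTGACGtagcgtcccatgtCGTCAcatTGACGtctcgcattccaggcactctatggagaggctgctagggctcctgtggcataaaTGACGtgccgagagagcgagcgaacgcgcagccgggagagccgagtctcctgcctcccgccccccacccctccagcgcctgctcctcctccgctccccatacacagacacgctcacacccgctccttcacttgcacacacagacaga

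Each of these 3 windows held TGACG at 4 places. The EGR motif was in those of Nr4a1, at position -60 from the start, and Nr4a2, at position -74. The p300 peak by the start of Nr4a3 ended at 48045059, so only its last bases reached into the window shown. The Nr4a2 window lay outside the H3K4me3 peak by its start, which ended at 57123781. A link between these letters and p300 was not tested.

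The IER genes, which encode small proteins induced by growth factors, had p300 beside the gene rather than at its ends. At Ier2 (chromosome 8, 84661331 to 84662852), H3K4me3 of 689 bp lay across the upper end, with 148 reads and a fold of 3.04. A p300 peak of fold 4.14 and 36 reads lay 1457 bp above the gene, and its summit was just inside the edge of a further H3K4me3 peak. At Ier3 (chromosome 17, 35821713 to 35822911) the start site was covered by 1125 bp of H3K4me3 with 198 reads and a fold of 6.61. There was a peak of 263 bp and fold 2.85 at its other end. Flot1, the nearest other protein-coding gene, lay 409 bp from Ier3, so this peak cannot be credited to Ier3 alone. The p300 peak of Ier3, from 35812583 to 35813991, lay 7722 bp below the gene. It held 154 reads, the most of the 10 p300 peaks, and its −log10 q of 64.1 placed it at percentile 95.3 of the p300 list. No protein-coding gene end was closer to it than that of Ier3. It overlapped an H3K4me3 peak of 1497 bp and fold 5.29.

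The feedback genes Dusp1 and Zfp36 differed in where p300 lay. H3K4me3 at Dusp1 (chromosome 17, 26505591 to 26508472, minus strand) was 1973 bp wide, from 26507254 to 26509226, with 155 reads and a fold of 4.27. A p300 peak of 1114 bp, from 26508113 to 26509226, lay inside it and ended at the same base. It had 99 reads and a fold of 6.32 and covered the start site, as in no other of the 7 genes with a RefSeq start in the table. Of all 17492 protein-coding genes with a start there, 8.90% had p300 over one. The promoter is shown because p300 covered it. The 250 bases before the start (chr17:26508473-26508722, minus strand) hold the complete cyclic AMP response element TGACGTCA at position -143 and a further TGACG at -191, both in capitals.
Dusp1 promoter: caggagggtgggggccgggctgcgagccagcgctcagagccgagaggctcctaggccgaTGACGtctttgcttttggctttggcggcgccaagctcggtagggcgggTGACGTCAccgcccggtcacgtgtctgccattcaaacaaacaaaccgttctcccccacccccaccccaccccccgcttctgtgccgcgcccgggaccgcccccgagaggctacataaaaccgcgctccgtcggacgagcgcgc

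H3K4me3 at Zfp36 (chromosome 7, 28376784 to 28379228, minus strand) covered 744 bp across the start site, with 169 reads and a fold of 3.28. No p300 peak lay there. A p300 peak of 1610 bp, from 28381283 to 28382892, lay 2055 bp above the gene, which is upstream of its start, and overlapped a further H3K4me3 peak of 1385 bp. It had 58 reads and a fold of 3.68. With a distance of 2 kb for gene ends it stayed outside, and Ier2 was added, which gave 4 genes with p300 at an end against 15.0% of all. A second p300 peak, of fold 4.09 and 38 reads, lay 3487 bp below Zfp36 and 253 bp from an end of Plekhg2, a guanine nucleotide exchange factor gene. The Zfp36 promoter (chr7:28379229-28379478, minus strand) is shown as one with H3K4me3 over the start and no p300 peak within 2 kb of the gene. Capitals mark a CArG box at position -58 and an EGR motif at -105.
Zfp36 promoter: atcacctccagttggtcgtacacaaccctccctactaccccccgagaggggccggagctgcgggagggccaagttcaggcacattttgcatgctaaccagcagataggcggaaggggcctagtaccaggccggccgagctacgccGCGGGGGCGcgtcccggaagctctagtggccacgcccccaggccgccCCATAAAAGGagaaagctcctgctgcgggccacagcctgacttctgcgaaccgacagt

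**Figure D2:**
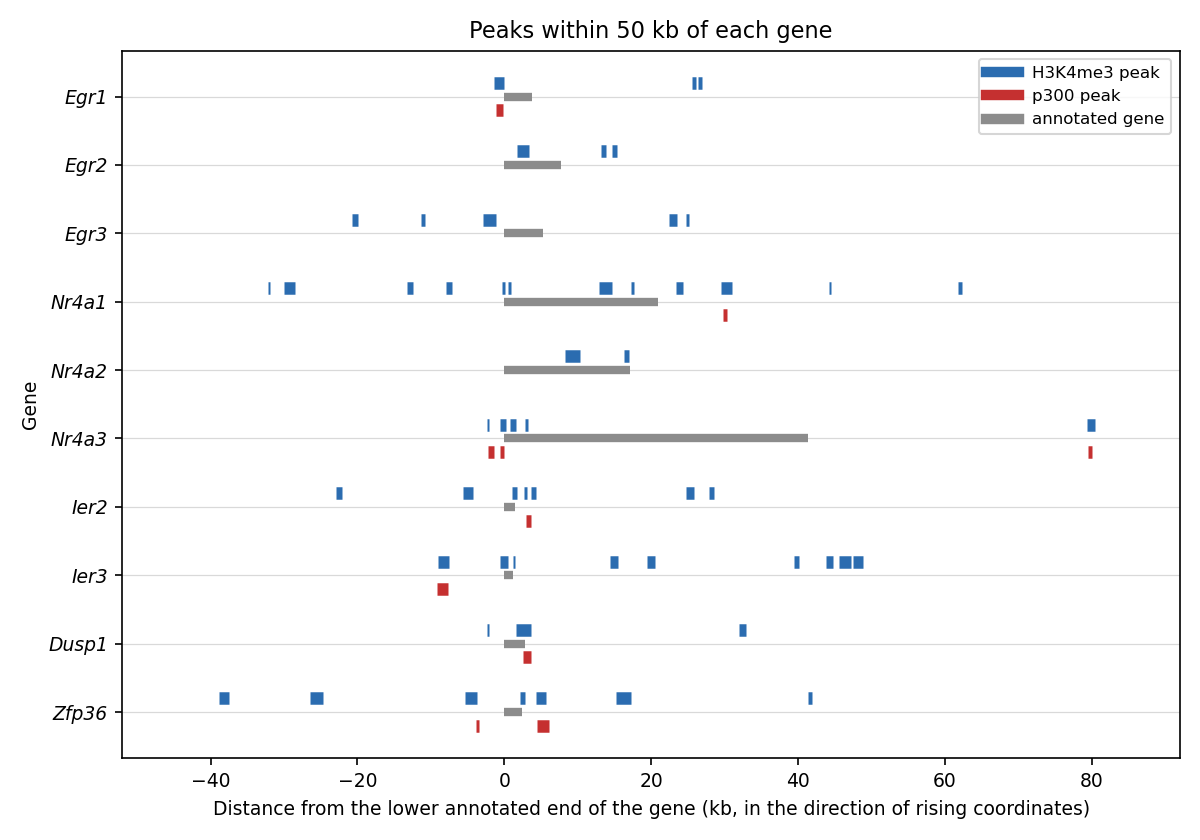
All peaks within 50 kb of the 10 genes, with distance in kb from the lower annotated end on the x axis. Blue bars are H3K4me3 peaks, red bars p300 peaks and grey bars the annotated genes. Nr4a1 has 12 H3K4me3 peaks in this span and Nr4a2 has 2, and the rows of Egr2, Egr3 and Nr4a2 hold no red bar.

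The counts were repeated at start sites. The RefSeq promoter table used here gives start sites for 7 of the 10 genes and lacks Egr1, Egr3 and Ier2. Left out were thus Egr3, without H3K4me3 within 1 kb, and Egr1, with p300 at an end. All 7 genes with a start had H3K4me3 within 1 kb of one, against 52.8% of 17492 protein-coding genes. Nr4a3 and Dusp1 had p300 there, against 14.4%. H3K4me3 covered a start in 5 of the 7 genes, against 42.6% of all. For Nr4a2 and Nr4a3 the nearest H3K4me3 peak missed the start by 222 and 30 bp.

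The H3K4me3 peaks of these genes held many reads but had low folds. The deepest H3K4me3 peak in or at an end of a gene was compared, a measure chosen after the values were seen, and Egr3 has none. In the other 9 genes it held 99 to 238 reads with a median of 172, against a median of 130 over the 12893 protein-coding genes with such a peak, and 8 of 9 were at or above that median. Its fold ranged from 3.04 to 8.81 with a median of 4.27, against 7.27 over all, and Egr1 alone was at or above that value. The background, solved from the same deposited values, ranged from 16.8 to 59.3 reads with a median of 35.5, against 16.3 over all, and all 9 were above it. Depth, background and fold are tied by 1 equation, so these 3 rankings are not independent.

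The gap between the rankings was widest at Nr4a1, Nr4a3 and Zfp36. The Nr4a1 peak stood at percentile 94.0 by reads and 3.87 by fold, and its background at 99.1. That of Nr4a3 stood at 81.2 by reads and 3.44 by fold, and that of Zfp36 at 72.9 and 1.13. Ier2 had the lowest fold percentile, 0.628, with 61.5 by reads. Egr1 was high by both, at 84.7 by reads and 73.7 by fold, and Egr2 was low by both, at 31.5 and 21.9. A ranking by fold alone would therefore place most of these genes among the weakest H3K4me3 peaks, and a ranking by reads would not.

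**Figure D3:**
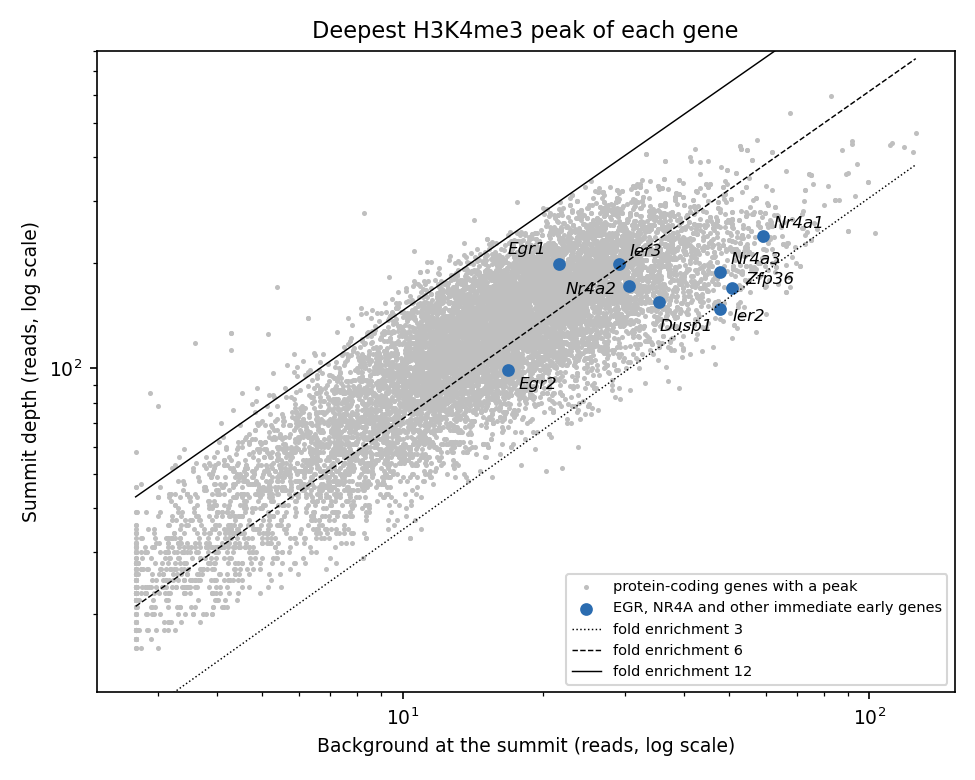
Summit depth against background, both in reads on log axes, for the deepest H3K4me3 peak of each protein-coding gene that has one in the gene or at an end. Blue points are 9 of the 10 genes (Egr3 has none), grey points the 12893 genes together, and lines show equal fold enrichment. Nr4a1, Nr4a3, Zfp36 and Ier2 sit at the right, with backgrounds of 47.8 to 59.3 reads.

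**Figure D4:**
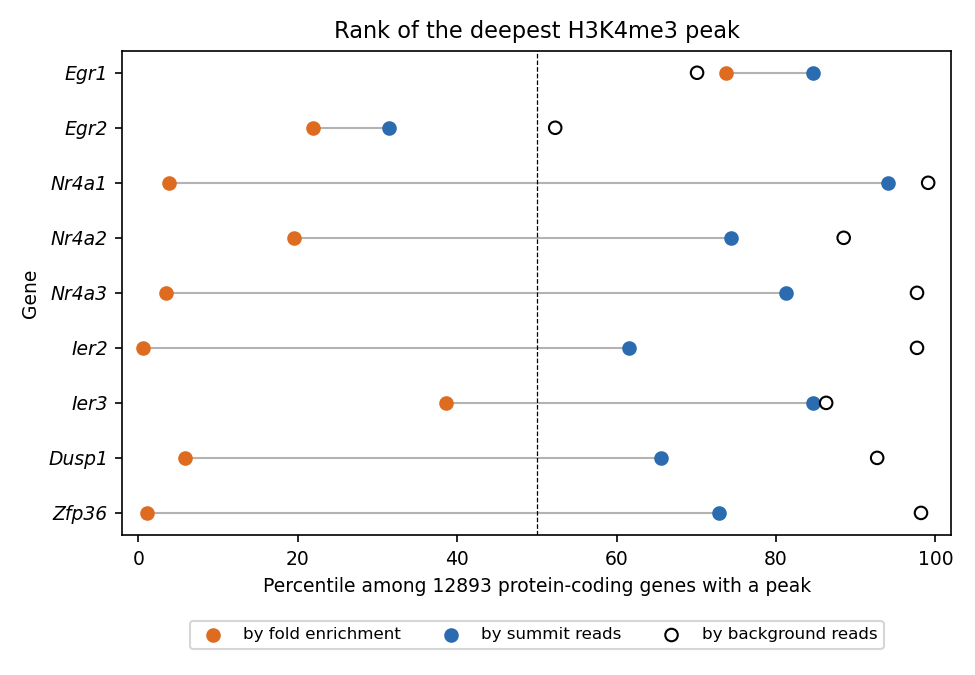
Percentile of the deepest H3K4me3 peak of each gene among 12893 protein-coding genes, by fold (orange), by summit reads (blue) and by background (open circles). Apart from Egr1 and Egr2, every gene shown is above the middle by reads and below it by fold.

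Within 5 kb of the summit, H3K4me3 peaks, the deepest one included, added up to 1369 to 2215 bp, with a median of 1973 bp, against 1286 bp over all genes with a peak, and all 9 were above that value, Egr1 and Ier3 by little, at percentiles 56.9 and 58.2. The total was 2215 bp for Nr4a1, 2129 bp for Zfp36 and 2125 bp for Nr4a3, the last spread over 4 peaks. Egr1, Egr2, Nr4a2 and Dusp1 had no other H3K4me3 peak within 5 kb, so their totals are the widths of their own peaks. The part of these totals in the background values was not tested. Of the 9 genes with H3K4me3 in the gene or at an end, 4 had more than 1 such peak (44.4%), against 42.1% of all genes with any.

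The p300 peaks of these genes all overlapped H3K4me3. There were 10 of them within 50 kb, and 10 of 10 overlapped (69.2 to 100%), where 85.5% of all 6512 p300 peaks did. With at least 50% of the p300 peak required to overlap, the share of these 10 peaks was 70%. The share over all p300 peaks with that requirement is not given, so the 70% has no reference. The summit lay inside H3K4me3 in 9 of the 10, against 80.9% of all. For 2 of these the summit was at the edge. The Zfp36 peak near Plekhg2 had its summit on the last base of H3K4me3, at 28373036. The Ier2 summit was at 84664404, and its H3K4me3 peak ended at 84664408. Of the 10 peaks, 7 were nearer to an end of one of these genes than to any other protein-coding gene, and those 7 belonged to Egr1, Nr4a3, Ier2, Ier3, Dusp1 and Zfp36. These 7 held 36 to 154 reads with a median of 79, against 39 for the whole list, and 6 of them were at or above that median. Their folds ranged from 3.68 to 6.55 with a median of 5.46, against 5.76, and 3 were at or above it. As for H3K4me3, the background was high, with a median of 15.0 reads against 5.97, and all 7 were above that value. The peaks nearer to Atg101, Stx17 and Plekhg2 held 29, 17 and 38 reads.

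These counts depended on how strong a peak had to be. Among peaks at or above the median fold of their list, 2 of the 10 genes had H3K4me3 at an end, against 34.4% of all protein-coding genes, and 4 had p300 within 50 kb, against 27.6%. Among peaks at or above the median −log10 q, the counts were 5, against 42.3%, and 4, against 27.1%.

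The letters of the promoter windows were searched for 6 motifs in the 7 genes with a start in the promoter table. Each window ran over 300 bases, from 250 before to 50 after the start. TGACG on either strand was in a window of 5 genes, against 26.2% of 17492 genes, and the whole TGACGTCA, which contains it, in Dusp1, against 2.54%. A CArG box was in Egr2 and Zfp36, against 1.76%, and GCGNGGGCG in Nr4a1, Nr4a2 and Zfp36, against 8.51%. The AP-1 motif TGANTCA was in none, against 8.12%, and TATAAA in the 50 bases before a start, on the strand of the gene, in none, against 3.81%. Egr2 has 5 windows, most of which overlap, and so had more chances than a gene with 1. Ier3 held none of the 6 motifs in its window. A match is a run of letters and does not show that a factor was bound.

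The windows of Egr2 held 2 CArG boxes, CCTTTTTTGG at position -72 of the start at 67537566 and CCATATATGG at position -72 of the start at 67537869. The latter is shown with its surroundings, since it lay beside a TGACG half-site in a promoter with H3K4me3 and no p300 peak within 50 kb. The 30 bases come from RefSeq GRCm38.p6 (chr10:67537791-67537820, plus strand) and precede 3 of the 5 start sites. Capitals mark the CArG box and TGACG on the other strand.
Egr2 CArG region: ctcagtCCATATATGGgcagcgaCGTCAcg

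Other immediate early genes were looked at as a list of 31 symbols. This list, which holds the AP-1 genes, Myc and others, had H3K4me3 at an end of 28, p300 at an end of 13 (41.9%, 24.5 to 60.9%) and p300 within 50 kb of 25 (80.6%, 62.5 to 92.5%). Both p300 intervals lie above the shares over all protein-coding genes, 13.5% and 44.2%. The list was picked by hand with earlier results of these data known, so this is a description and not a test. The interval of the upstream factors and kinases for p300 at an end, 14.6 to 57.0%, also lies above 13.5%. Theirs for p300 within 50 kb, 43.0 to 85.4%, includes 44.2%. The shares over all genes take in genes without H3K4me3 at an end. Of the 2957 protein-coding genes with p300 at an end, 2926 also had H3K4me3 there. A share among only the 11045 genes with H3K4me3 at an end is not given, and its part in these intervals was not tested. The difference of these lists from the 10 genes was not tested, and the intervals of the lists overlap. Arc, Csrnp1 and Sgk1 had no H3K4me3 at an end. The strongest p300 peaks within 50 kb were near Plk2, a polo-like kinase, at fold 8.71, and near Klf6 at 8.40 and Atf3 at 7.88, both transcription factors. Next was one near the AP-1 gene Jund, at 6.87. The gene nearest to each peak is not given for the lists. At an end the highest p300 fold was 8.71 at Plk2, 4.48 at Klf6 and 5.87 at Atf3, and Jund had none. By fold, H3K4me3 at an end was highest at Klf2, a zinc finger factor, with 10.0, and at Dusp5, an ERK phosphatase, with 8.61. By reads the order differed, with 142 at Klf2 and 92 at Dusp5, and Fos had the most, 297. The median fold of the strongest H3K4me3 peak at an end was 5.44 in this list, 4.49 in the 10 genes and 7.28 over all genes, and the median depth of the deepest one was 144, 162 and 133 reads, respectively.

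**Figure D5:**
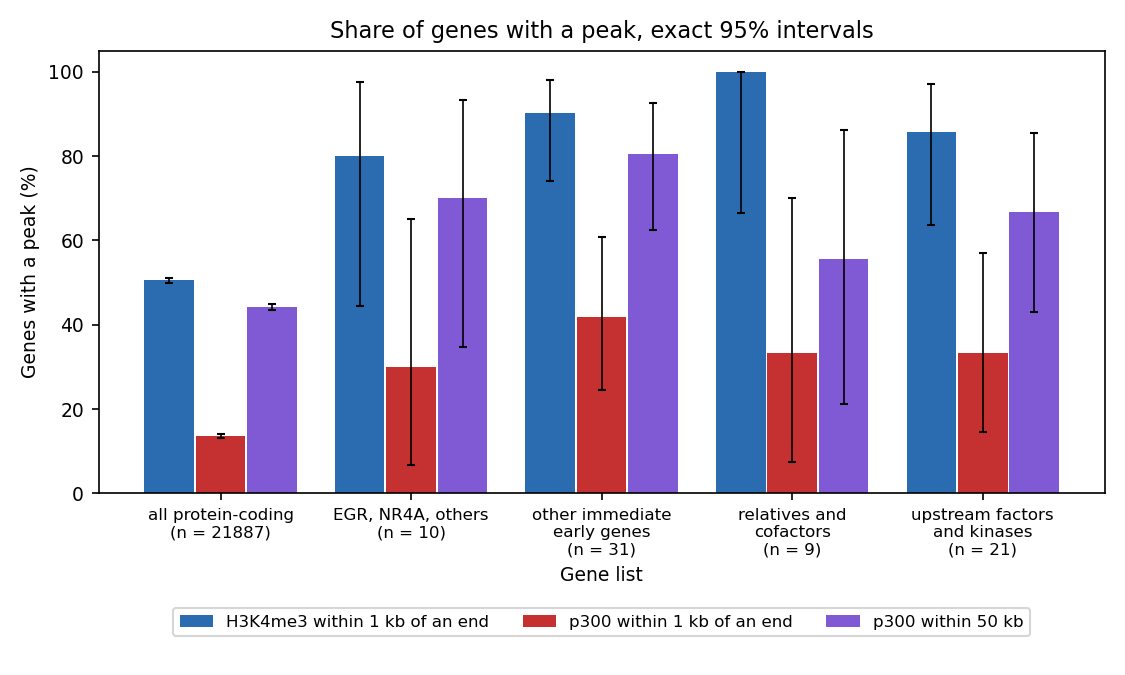
Percent of genes with H3K4me3 within 1 kb of an end (blue), p300 within 1 kb of an end (red) and p300 within 50 kb (purple) in each gene list. Bars start at 0 and error bars are exact 95% binomial intervals for counting error. The 10 genes are at 80, 30 and 70%, and their error bars reach the level of all protein-coding genes.

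Relatives and partners of these genes formed a list of 9. All 9 had H3K4me3 at an end, and 3 had p300 there. Those were Zfp36l2, a relative of Zfp36, Nab2, which encodes a corepressor of EGR proteins, and Dusp6, an ERK phosphatase. The strongest p300 peak of the list within 50 kb was near Dusp6, at fold 9.69, and the one at an end of Dusp6 had 4.16. Zfp36l1, Nab1, Egr4 and Ier5l had no p300 within 50 kb. Egr4, Ier5 and Ier5l are in this list and in the list of 31. Egr4, the fourth EGR gene, had H3K4me3 of fold 5.55 at an end with 25 reads, fewer than the deepest peak at Egr1, Egr2 or the closest at Egr3.

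The factors and kinases upstream of these genes had H3K4me3 at an end of 18 of 21 and p300 at an end of 7 (33.3%, 14.6 to 57.0%). The exceptions for H3K4me3 were Srf, Rps6ka2 and Rps6ka4, and all 3 had it inside the gene. Srf, which encodes serum response factor, also had no p300 within 50 kb. The strongest p300 peaks were near Rps6ka1, a ribosomal S6 kinase, at fold 10.9, Mrtfb, a coactivator of serum response factor, at 7.14, and Atf1, a relative of CREB, at 6.70. Creb1 and Elk4 both had p300 at an end, with folds of 6.09 and 4.10. The median fold of the strongest H3K4me3 peak at an end was 6.99 in this list.

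Genes of the lists with the same presence pattern were noted, where the pattern is H3K4me3 at an end, p300 at an end and the number of p300 peaks within 50 kb, over 2 libraries. Egr1 and Dusp1 shared theirs with 11 genes of the lists, among them Jun, Myc and Klf4, and with 5.42% of all protein-coding genes, themselves included. Nr4a1, Ier2 and Ier3 shared theirs with 8, among them Fos, Fosb and Junb, and with 10.4% of all genes. Nr4a2 shared its pattern with 12, among them Egr4, Klf2 and Zfp36l1, and with 18.8% of all. Nr4a3 shared its pattern with Atf3, Creb1, Dusp6, Klf6 and Rhob and with 2.32% of all genes. Zfp36 shared its own with Dusp4, Fosl1, Jund, Mrtfa and Mrtfb and with 4.62% of all. Egr2 and Egr3 shared theirs with Arc, Rps6ka4 and Srf and with 37.0% of all genes.

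After removal of the mitochondrial chromosome and scaffolds they held 27019 H3K4me3 and 6512 p300 peaks, with median folds of 6.24 and 5.76 and median summits of 80 and 39 reads, and no listed summit held fewer than 15 and 14. Read totals are unknown, so the absence of a peak means that none was detectable with this many reads. The label of the line was checked on markers. H3K4me3 was at an end of 6 of 7 pigment cell genes, among them Mitf, Sox10 and Tyr, 1 of 5 leukocyte genes (Cd68), 0 of 4 epithelial genes and 0 of 3 endothelial genes. Over all protein-coding genes the share was 50.5%, inside the pigment cell interval of 42.1 to 99.6%. The Sox10 peak had 228 reads but a fold of 2.01. With the whole gene counted the marker counts were 7 of 7, 1 of 5, 1 of 4 and 1 of 3, against 58.9% of all genes.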

How the data were processed

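Peak lists of 2 of the 6 CUT&Tag libraries were used, grouped by their titles. The genotype field of the labels reads wild type for every library, and the titles name the knockouts. Bowtie2 2.2.5, Picard 2.22.4, deepTools and Trim Galore are named, with the build mm10, per the submitters' processing notes. No peak caller, control library or duplicate filter is named there. The authors deposited 1 narrowPeak list per library with positions, a score, a fold enrichment (a ratio of summit to background), and −log10 p-value and −log10 q-value of each peak. All folds and −log10 q values above are the authors' and rank peaks only within a list.

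Summit depth was solved, after the values were seen, as the whole number of reads k for which the fold is (k + 1) over (background + 1) and the Poisson tail gives the deposited −log10 p. This held within 0.002 for 99.98% of H3K4me3 and 99.97% of p300 peaks, and the steps were tested on simulated data. A read here may be a fragment.

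Gene ends came from RefSeq GRCm38.p6, whose chromosomes are those of mm10. Peaks shared 1 bp to overlap. Intervals are exact binomial (scipy 1.17.1) and cover counting error only. The members and lists were chosen with earlier results of these data known. All members are named, and of the other lists some of the strongest genes and small minorities, with 1 gene not reported here.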

Additional observations from a re-analysis of the deposited data

How the results depend on the processing

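Of 29 alternative values, 19 stayed within the limits set for the reported one, which were 1.5 times for counts. For the overlap share they were its exact interval, 69.2 to 100%. With peaks at or above the median fold, the genes with H3K4me3 at an end went from 8 to 2, those with p300 within 50 kb from 7 to 4, the p300 peaks within 50 kb from 10 to 4, and their overlap with H3K4me3 from 100% to 50%. With peaks at or above the median −log10 q, these counts were 5, 4 and 5. Within 100 kb there were 17 p300 peaks. The median width of the widest H3K4me3 peak at an end was 752 bp, and it became 1247 bp with a window of 2 kb and 1378.5 bp when peaks up to 1 kb apart were joined. By construction, some settings kept fewer peaks and others counted more. Over all protein-coding genes, the share with H3K4me3 at an end went from 50.5% to 34.4% with peaks at or above the median fold. How much of the fall from 8 to 2 came from the setting was not tested. For the overlap of 50% with such peaks, the share over all p300 peaks is not given, so it has no reference. Gene ends within 500 bp, p300 within 25 kb, nearest genes only, and other definitions of overlap gave values within the limits. So did start sites in place of ends, for the 7 genes with one in the promoter table. The overlap share was 70% with at least 50% of the p300 peak required, close to the lower limit, and 90% by summits. No paired analysis was possible because each antibody has 1 library. Depth limits the absence of a peak, and repeat libraries would be needed to give an error for any single peak.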

Other observations

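Apart from that of Ier3, every promoter window of these genes held more CpG than the median window of protein-coding genes. Over the 11 windows of the 7 genes with a start in the promoter table, the median GC content was 63.7% with 24 CpG in 300 bases. The medians over 21263 windows of protein-coding genes were 56.3% and 13. Nr4a2 was highest, with 81.7% GC and 52 CpG, and Ier3 lowest, with 54% GC and 10 CpG. Dusp1, with p300 over its start, had 67% GC and 31 CpG. The 5 windows of Egr2 overlap in part, so the windows are not independent.

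The surroundings of the genes differed in how many other genes they held. Dusp1 had no other protein-coding gene within 50 kb, and its p300 peak was the only one in that span. Zfp36 had 6 other protein-coding genes there, and Ier2 and Ier3 had 5 each.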
